A study of Homo sapiens with 6 samples.

Results

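The Kruppel-like factors examined here were the 10 genes KLF2, KLF3, KLF4, KLF6, KLF7, KLF9, KLF10, KLF11, KLF13 and KLF16, chosen by gene symbol from the 35474 genes of the deposited table. All 10 were listed and all 10 passed the filter on low counts. The cells were A549, a human lung adenocarcinoma line. Of its cultures, 3 were transfected with siRNA against BAP18 (siBAP18) and 3 with non-specific siRNA (siCtrl), and poly(A) RNA was sequenced from all of them after 48 h. BAP18, listed under the symbol C17orf49, is a subunit of chromatin complexes that include the NURF remodeler. All libraries come from one cell line, and which of the BAP18 siRNAs the cultures received is not given in the sources used here. Total counts over all genes were 53657450, 46035635 and 47099816 for siCtrl replicates 1, 2 and 3 and 53996860, 56548620 and 42094524 for those of siBAP18.

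Levels are given as CPM, a gene's share of the library's counts, after scaling by edgeR's trimmed mean of M-values (TMM). The targeted gene was measured first. C17orf49 stood at 14.0, 16.1 and 15.1 CPM in the siCtrl replicates and at 2.21, 2.35 and 2.66 CPM in the siBAP18 replicates, a log2 fold change of −2.65 (adjusted p = 7.31e-16, edgeR quasi-likelihood test with Benjamini-Hochberg adjustment). Its exons, 2628 bases in all, overlap those of RNASEK and a read-through gene on the same strand and of antisense genes. These overlaps sum to 2799 bases, with each gene's overlap counted separately. Part of its count could therefore belong to them, and how much is unknown. All 5 epithelial markers fixed for the line (EPCAM, KRT8, KRT18, KRT19 and CDH1) were counted, with KRT8 the highest at a mean of 1731 RPKM (counts scaled by gene length and library total) over the 6 libraries. Their sum was 3999, 3830 and 4057 RPKM in siCtrl and 3317, 2972 and 3438 RPKM in siBAP18, and KRT8, KRT18, EPCAM and CDH1 were called lower, with log2 fold changes of −0.37, −0.24, −0.41 and −1.32. Markers of alveolar and club cells summed to at most 0.404 RPKM in any library, those of endothelium to at most 0.165 RPKM and those of fibroblasts to at most 1.32 RPKM. Of 4 leukocyte markers 2 were listed, and their sum lay between 28.7 and 31.1 RPKM in siCtrl and between 54.2 and 69.7 RPKM in siBAP18. It was carried by CD68, a lysosomal protein that other cells also make, while the other listed marker had at most 3 counts in any library. The part of these cells in the values of the Kruppel-like factors was not tested. Replicate 3 of siBAP18, the shallowest library, was the lowest siBAP18 library for 39.5% of all genes tested, and it was the lowest for 7 of the 10 Kruppel-like factors.

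Kruppel-like factors are transcription factors whose zinc fingers bind GC boxes and CACCC boxes in promoters and enhancers, the same sites that the related SP factors bind. They fall into groups by the partners their amino-terminal parts recruit. KLF2, KLF4, KLF6 and KLF7 mainly activate transcription through histone acetyltransferases, KLF9, KLF10, KLF11, KLF13 and KLF16 can recruit the SIN3A histone deacetylase corepressor, and KLF3 recruits the corepressor CtBP. In epithelia and lung these genes take part in differentiation, growth arrest and responses to stress, hormones and TGF-β.

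Promoters of KLF6, KLF4 and KLF11, which rose with no overlap between the groups, are shown to place the words that Kruppel-like factors are known to bind. RefSeq windows of 300 bases, from 250 before to 50 after a gene's start on GRCh38.p14, matched 8 of the 10 members by symbol, with 12 windows in all. KLF3 and KLF10 had no window in the table, KLF11 had 2, of which the one with more marked words is shown, and KLF7 had 4, which are not shown. In the sequences below, printed 5′ to 3′ on the strand of the gene, capitals mark the CACCC box, the GC box core GGGCGG, the AP-1 word TGANTCA, the cyclic AMP response word TGACGTCA and the CArG box of serum response factor, each searched on both strands.
KLF6, chr10:3785160-3785459, minus strand: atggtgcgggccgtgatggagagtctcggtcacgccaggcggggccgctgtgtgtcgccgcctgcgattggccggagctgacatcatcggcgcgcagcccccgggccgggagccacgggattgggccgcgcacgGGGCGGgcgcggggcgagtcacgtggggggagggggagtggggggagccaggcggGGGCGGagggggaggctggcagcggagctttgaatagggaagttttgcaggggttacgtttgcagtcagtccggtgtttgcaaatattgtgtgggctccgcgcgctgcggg
KLF4, chr9:107489720-107490019, minus strand: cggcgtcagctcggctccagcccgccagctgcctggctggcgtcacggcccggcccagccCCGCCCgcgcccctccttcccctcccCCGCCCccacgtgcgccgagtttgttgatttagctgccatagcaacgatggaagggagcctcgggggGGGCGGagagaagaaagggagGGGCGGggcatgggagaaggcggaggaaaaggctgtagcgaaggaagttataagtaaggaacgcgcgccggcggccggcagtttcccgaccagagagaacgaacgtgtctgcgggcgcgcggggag
KLF11, chr2:10043971-10044270, plus strand: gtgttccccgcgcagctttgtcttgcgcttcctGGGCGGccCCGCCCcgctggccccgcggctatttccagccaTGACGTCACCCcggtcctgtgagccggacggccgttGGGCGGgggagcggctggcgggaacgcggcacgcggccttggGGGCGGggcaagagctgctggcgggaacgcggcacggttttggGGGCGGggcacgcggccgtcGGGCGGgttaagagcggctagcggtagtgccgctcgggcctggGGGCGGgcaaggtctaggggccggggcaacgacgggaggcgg
The KLF6 window held 2 GGGCGG words and the KLF4 window 4. The KLF11 window shown held 7, the other held 2 and no other marked word, and in the one shown TGACGTCA runs on into a CACCC word that shares its last bases. Over the 12 windows, GGGCGG was present in 66.7% against 45.0% of 35116 RefSeq windows of the same length, and in at least 1 window of each of KLF2, KLF4, KLF6, KLF7, KLF11, KLF13 and KLF16. CACCC was present in 41.7% against 59.9%, CCAAT in 41.7% against 34.6%, and TGANTCA and TATAAA in none against 7.71% and 11.5%. TGACGTCA was present in 8.33% against 1.85% and the CArG box in 8.33% against 1.29%. Each of these 2 shares is 1 of the 12 windows, of KLF11 for TGACGTCA and of KLF7 for the CArG box. The median GC content of the members' windows was 70.3% against 58.7% of all windows, with the windows of KLF9 and KLF7 as low as 32.7% and 42.7%, and GGGCGG is made of those bases. These matches describe letters only.

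Across the 10 members, 5 rose and 1 fell at an adjusted p under 0.05, and 4 did not pass the test. Of the 20776 genes tested, 49.6% changed by the same rule, with 24.5% higher and 25.1% lower, so the members' 6 of 10 stood close to the table as a whole. KLF6, KLF10, KLF11, KLF4 and KLF7 rose, and KLF13 fell. KLF6 and KLF10 also passed an absolute log2 fold change of 1. Among all genes 4.72% rose past both thresholds, which 2 of the 10 members did, and 3.74% fell past both, which no member did. The groups did not overlap for 5 of the 10 members, against 56.6% of all genes. The median log2 fold change of the members was 0.33, and that of all genes tested was near 0. In bulk RNA, fewer cells that make a transcript and less of it per cell cannot be told apart. The plot of CPM by library shows each member's values.

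**Figure D1:**
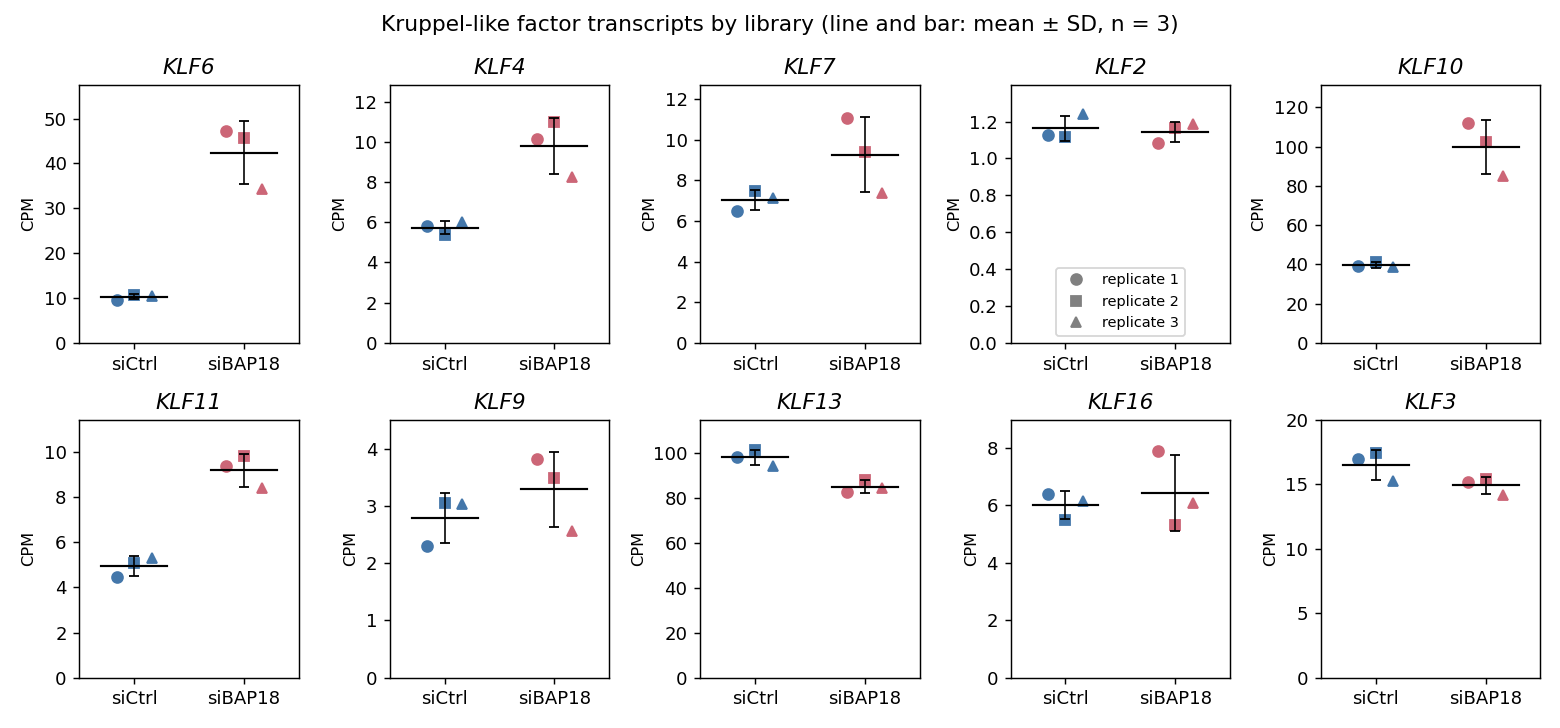
CPM of the 10 Kruppel-like factors in each library, with siCtrl in blue, siBAP18 in red and one marker shape per replicate; each panel has its own linear axis from 0, and lines and bars give the mean ± SD of 3 libraries. KLF6 sits between 9.66 and 10.6 CPM in siCtrl and between 34.4 and 47.2 CPM in siBAP18, while KLF2 lies near 1 CPM in both groups.

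Among the activating factors, KLF6 changed most. KLF6, a widely expressed factor described as a tumor suppressor and as an early responder to injury, lies at chr10:3775996-3785281 on the minus strand. It stood at 9.66, 10.6 and 10.5 CPM in siCtrl replicates 1, 2 and 3 and at 47.2, 45.6 and 34.4 CPM in siBAP18 replicates 1, 2 and 3. Every siBAP18 library was at least 3 times any siCtrl library, and replicate 3 was the lowest of the siBAP18 libraries. The mean rose 4.12-fold, from 10.3 ± 0.532 to 42.4 ± 6.97 CPM (mean ± SD over 3 libraries, as for all members). The log2 fold change was 2.05 with a standard error of 0.0979, a 95% interval of 1.85 to 2.25 and an adjusted p of 1.01e-14 in edgeR's quasi-likelihood test. Without siBAP18 replicate 3 the log2 fold change was 2.18.

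KLF4, a factor of epithelial barrier differentiation and of reprogramming to pluripotency, lies at chr9:107484852-107490482 on the minus strand. Its values were 5.83, 5.38 and 5.99 CPM in siCtrl and 10.1, 11.0 and 8.26 CPM in siBAP18. The groups did not overlap, and the lowest siBAP18 value was again replicate 3. KLF4 rose from 5.73 ± 0.319 to 9.78 ± 1.38 CPM, with a log2 fold change of 0.78 and a 95% interval of 0.55 to 1.01 (adjusted p = 2.04e-06).

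KLF7, the closest relative of KLF6 and a factor of neuronal and sensory development, lies at chr2:207074137-207167267 on the minus strand. It stood at 6.49, 7.48 and 7.12 CPM in siCtrl and at 11.0, 9.37 and 7.38 CPM in siBAP18. Replicate 3 of siBAP18 fell inside the siCtrl range, so the groups overlapped although the gene passed the test, with a log2 fold change of 0.41 and a 95% interval of 0.16 to 0.65 (adjusted p = 0.00603). Without siBAP18 replicate 1, its highest library, KLF7 was not called (log2 fold change 0.26, adjusted p = 0.0976), and limma on RPKM did not call it either.

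KLF2, a factor of endothelial quiescence that was first described in lung, lies at chr19:16324817-16327874 on the plus strand and was the scarcest member in CPM. Its counts were 60, 52 and 58 in siCtrl and 59, 68 and 48 in siBAP18, or 1.16 ± 0.0681 and 1.14 ± 0.0529 CPM. The groups overlapped, and its log2 fold change of −0.024 had a 95% interval of −0.47 to 0.43 (adjusted p = 0.938).

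Of the factors that can recruit SIN3A, the TGF-β early genes KLF10 and KLF11 were both higher in siBAP18. KLF10, an early target of TGF-β that restrains growth in epithelial cells, lies on chromosome 8 from 102648779 to 102655902, on the minus strand. It stood at 39.0, 41.4 and 38.4 CPM in siCtrl and at 112, 102 and 85.0 CPM in siBAP18. All 3 siBAP18 libraries were more than 2 times any siCtrl library, with replicate 3 lowest. Its mean rose 2.52-fold, from 39.6 ± 1.59 to 99.8 ± 13.7 CPM, with a log2 fold change of 1.33, a standard error of 0.0826, a 95% interval of 1.16 to 1.51 and an adjusted p of 1.32e-12. Without siBAP18 replicate 3 the log2 fold change was 1.44.

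KLF11, the nearest relative of KLF10 and a regulator of pancreatic and metabolic genes, lies at chr2:10042849-10054836 on the plus strand. Its values were 4.44, 5.10 and 5.28 CPM in siCtrl and 9.39, 9.81 and 8.39 CPM in siBAP18. The groups did not overlap. It rose from 4.94 ± 0.445 to 9.20 ± 0.732 CPM, with a log2 fold change of 0.90 and a 95% interval of 0.68 to 1.13 (adjusted p = 1.59e-07). Over 416 bases its exons overlap a gene on the opposite strand, as do those of KLF16 over 483 bases and of KLF3 over 266 bases. The strand setting of the counting is not given in the sources used here, so the share of those counts that belongs to the opposite gene is unknown.

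KLF13, known in T lymphocytes as an activator of the chemokine CCL5, lies at chr15:31326855-31435665 on the plus strand and was the one member that fell. It stood at 98.3, 101.4 and 94.3 CPM in siCtrl and at 82.5, 88.1 and 84.4 CPM in siBAP18. The groups did not overlap, but the change was small. Its mean went from 98.0 ± 3.56 to 85.0 ± 2.85 CPM, with a log2 fold change of −0.20 and a 95% interval of −0.34 to −0.069 (adjusted p = 0.0115). The call was lost without siCtrl replicate 2 (adjusted p = 0.0729) and without siBAP18 replicate 1 (adjusted p = 0.0694).

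The other SIN3A-binding members did not pass the test. KLF9, which glucocorticoids and thyroid hormone induce in many tissues, lies at chr9:70384597-70414624 on the minus strand. It was listed at 2.29, 3.05 and 3.04 CPM in siCtrl and at 3.82, 3.49 and 2.57 CPM in siBAP18. Replicates 1 and 2 of siBAP18 were above all siCtrl libraries and replicate 3 was inside their range. The log2 fold change was 0.25 with a 95% interval of −0.084 to 0.59 (adjusted p = 0.209), and without siBAP18 replicate 3 it was 0.39 (adjusted p = 0.0342), past the threshold. KLF16, a regulator of metabolic and dopamine receptor genes, lies at chr19:1852399-1863568 on the minus strand. Its values of 6.41, 5.48 and 6.16 CPM in siCtrl and 7.88, 5.33 and 6.07 CPM in siBAP18 overlapped, with a log2 fold change of 0.094 and a 95% interval of −0.17 to 0.36 (adjusted p = 0.575).

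KLF3, the CtBP-binding repressor among the members and a regulator of red cell and fat cell genes, lies at chr4:38664196-38701042 on the plus strand. It stood at 16.96, 17.4 and 15.2 CPM in siCtrl and at 15.2, 15.4 and 14.2 CPM in siBAP18. Replicate 2 of siBAP18 lay just above replicate 3 of siCtrl, so the groups overlapped. Its log2 fold change of −0.15 had a 95% interval of −0.32 to 0.024 (adjusted p = 0.147).

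The 5 members that rose shared a low value in siBAP18 replicate 3. Replicate 3 was the lowest siBAP18 library for 5 of these 5 members, at a median of 78.4% of the mean of replicates 1 and 2. Among 4133 genes that rose and had an average log2 CPM of at least 1, replicate 3 was lowest for 28.6%, and the median stood at 105% of the mean of the other siBAP18 libraries. The share of mitochondrial transcripts was 5.74%, 5.27% and 6.14% in siBAP18 replicates 1, 2 and 3, against 7.43%, 7.08% and 6.86% in those of siCtrl. The part of library quality in these differences was not tested. Without siBAP18 replicate 3 all 5 members were still called, with log2 fold changes of 2.18 for KLF6, 1.44 for KLF10, 0.96 for KLF11, 0.88 for KLF4 and 0.54 for KLF7.

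Of the rest of the family 7 genes were listed. KLF5, which drives proliferation in many epithelia, fell from 70.9 ± 2.90 to 34.2 ± 1.00 CPM. Its libraries stood at 73.4, 71.7 and 67.7 CPM in siCtrl and 34.8, 34.7 and 33.0 CPM in siBAP18, with no overlap and a log2 fold change of −1.05 (adjusted p = 3.12e-12). KLF12, a CtBP-binding repressor like KLF3, fell from 2.86 to 1.40 CPM with a log2 fold change of −1.01 (adjusted p = 3.11e-05), which moved inside −1 without siCtrl replicate 1 (−0.990), siBAP18 replicate 1 (−0.998) or siBAP18 replicate 3 (−0.89). On the log2(RPKM + 1) scale without a filter the differences were −0.97 for KLF5, −0.16 for KLF12 and 0.35 for KLF15, still called by limma but inside 1. In the limma settings that required a mean of 0.5 RPKM, KLF5 was called, and KLF12 and KLF15 were not tested. KLF15, a regulator of glucose and amino acid metabolism, had 2, 4 and 2 counts in siCtrl and 54, 52 and 28 counts in siBAP18. Relative to library totals KLF15 rose 16.0-fold, with an exact 95% interval of 7.89 to 37.8 from its 8 and 134 counts that covers counting error only (adjusted p = 1.01e-07). All 6 of its counts are even, and if both reads of each pair were counted that interval is too narrow. KLF1, KLF8, KLF14 and KLF17 were not tested, with at most 14 counts in any library. Over the 17 KLF genes of the table, 13 were tested, 6 rose and 3 fell, beside 24.5% of all genes that rose and 25.1% that fell. The plot of log2 fold changes gives them with their intervals.

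**Figure D2:**
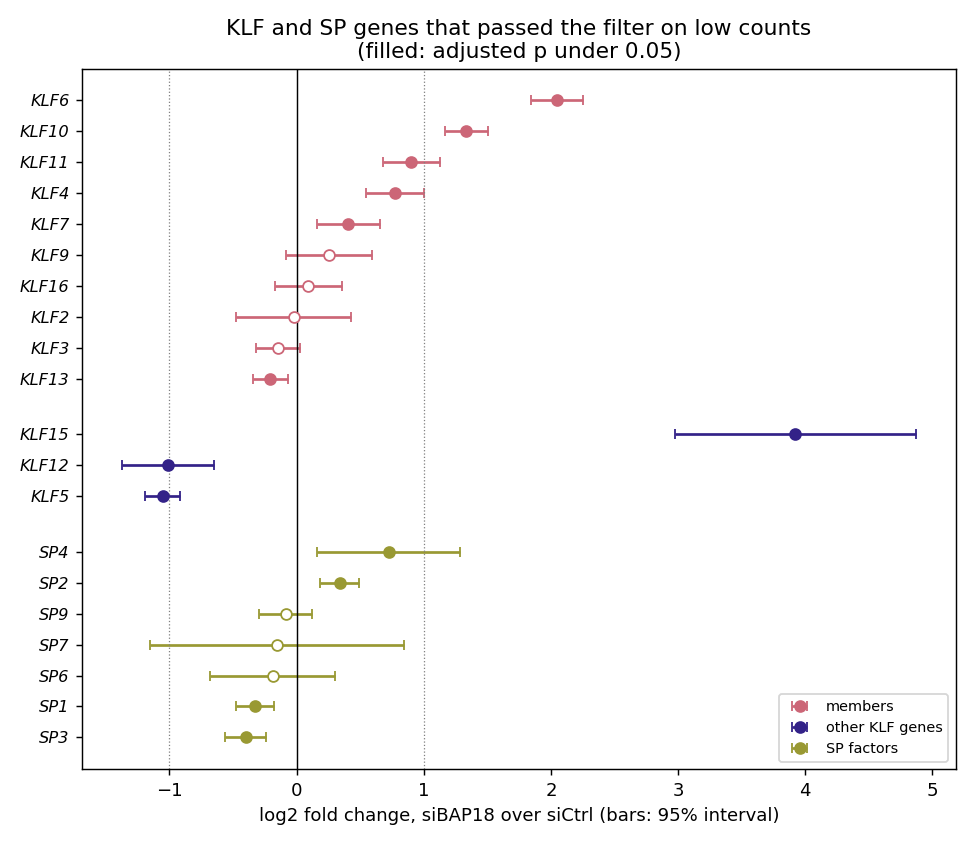
Log2 fold change of siBAP18 over siCtrl, with 95% intervals, for the Kruppel-like factors examined here, the other KLF genes and the SP factors that passed the filter on low counts. Filled points passed an adjusted p of 0.05 and dotted lines mark −1 and 1; KLF6 at 2.05, KLF10 at 1.33 and KLF15 at 3.92 lie to the right of 1, KLF5 at −1.05 and KLF12 at −1.01 to the left of −1.

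Levels between genes were compared per gene length, in RPKM. In siCtrl, KLF5 came first at 18.2 RPKM, followed by KLF13 at 10.4 ± 0.472 and KLF10 at 9.87 ± 0.503 RPKM, whose libraries overlapped. KLF3 followed at 2.62 RPKM, KLF16 at 2.03, KLF6 at 1.67 and KLF4 at 1.56 RPKM, of which KLF6 and KLF4 overlapped. KLF11 at 1.07, KLF7 at 0.758, KLF2 at 0.575 and KLF9 at 0.539 RPKM closed the order of the members, with overlap between KLF2 and KLF9. In siBAP18, KLF10 came first at 25.0 ± 4.07 RPKM, above KLF13 at 9.05 RPKM and KLF5 at 8.79 RPKM, which overlapped. KLF6 followed KLF5 in that order, at 6.94 ± 1.34 RPKM. The levels of KLF4, KLF3, KLF16 and KLF11, from 2.69 down to 2.01 RPKM, overlapped from neighbour to neighbour.

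As shares of the family's RNA, the order changed as well. KLF10 held 19.9% of the summed RPKM of the 17 KLF genes in siCtrl and 40.4% in siBAP18, and KLF6 held 3.37% and 11.2%. KLF5 held 36.7% and 14.3%, and KLF13 held 21.0% and 14.8%. The 10 members summed to 31.1 ± 1.07 RPKM in siCtrl and 52.5 ± 7.05 RPKM in siBAP18, and all 17 genes to 49.6 ± 1.66 and 61.8 ± 7.67 RPKM. These sums are descriptions and carry no test.

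**Figure D3:**
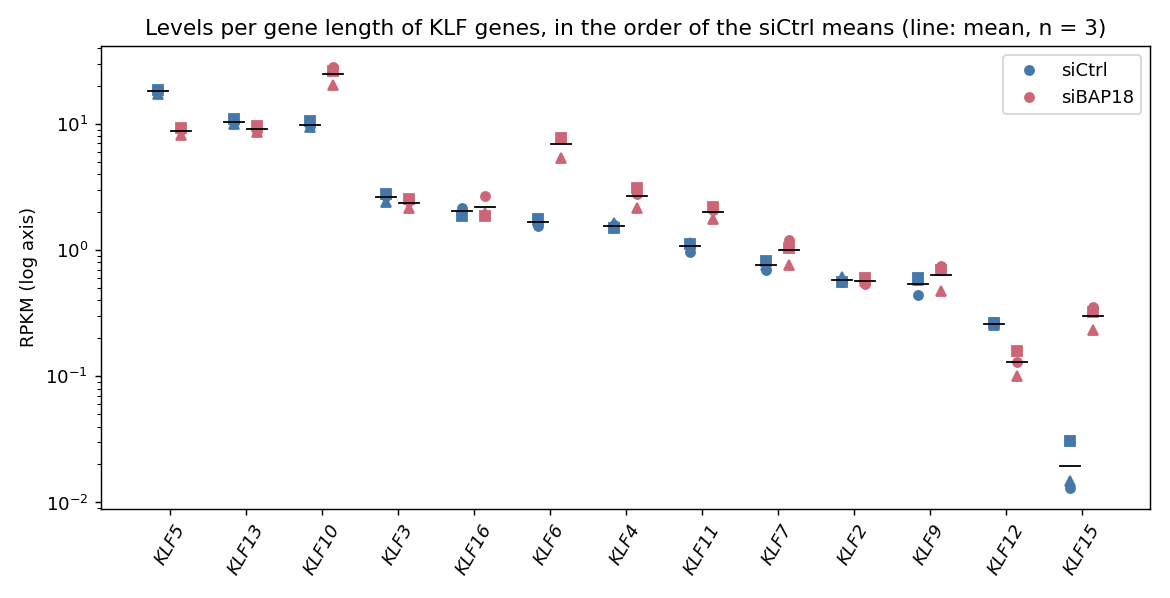
RPKM of the 13 KLF genes that were tested, on a log axis, in the order of their siCtrl means, with siCtrl in blue, siBAP18 in red, marker shapes as replicates (circle 1, square 2, triangle 3) and lines as means of 3 libraries. KLF10 lies at 9.87 RPKM in siCtrl and 25.0 RPKM in siBAP18, above every other KLF gene in siBAP18.

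The SP factors can bind the same GC boxes as the Kruppel-like factors. Of 9 listed, 7 were tested, 2 rose, 2 fell and none passed both thresholds, with a median log2 fold change of −0.15. These 4 of 7 are near the 49.6% called among all genes. SP1, the general GC box activator, fell from 77.9 ± 1.09 to 62.1 ± 6.64 CPM (log2 fold change −0.32, adjusted p = 6.35e-04). SP3, its close relative, fell from 19.9 to 15.0 CPM (−0.40, adjusted p = 1.59e-04). SP2 rose by 0.34 (adjusted p = 6.06e-04) and SP4 by 0.73 (adjusted p = 0.0300) on the log2 scale, SP4 from 0.789 to 1.32 CPM. The call of SP4 was lost in DESeq2 (adjusted p = 0.0866), in limma on RPKM without a filter, and without siCtrl replicate 3 or siBAP18 replicate 3 (adjusted p = 0.196 and 0.0847).

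The RNAs of proteins that KLF factors recruit were counted next. Of 13 corepressors and coactivators, 5 rose, 4 fell and 4 did not pass the test, none past both thresholds, with a median of 0.061. Of all genes, 24.5% rose and 25.1% fell. SIN3A, the scaffold that KLF9, KLF10, KLF11, KLF13 and KLF16 bind, stood at 208, 207 and 210.1 CPM in siCtrl and 151, 159.6 and 134 CPM in siBAP18, without overlap, a log2 fold change of −0.49 (adjusted p = 1.90e-06). Its paralog SIN3B rose from 17.6 to 24.9 CPM (0.50, adjusted p = 5.92e-06), SAP30, a subunit of the same complex, by 0.41 (adjusted p = 1.09e-04) and the deacetylase HDAC1 by 0.31 (adjusted p = 4.32e-04). Of 12 ubiquitin ligases and deubiquitinases that act on KLF proteins, 4 rose and 2 fell, none past both thresholds, with a median of 0.12. These 6 of 12 stand beside 49.6% of all genes. WWP1, a ligase for KLF2 and KLF5, fell from 27.0 to 19.5 CPM (−0.47, adjusted p = 1.06e-05), and the ligase SMURF1 fell from 52.8 to 42.4 CPM (−0.32, adjusted p = 4.35e-04). SMURF2, its paralog, rose from 20.5 to 26.2 CPM (0.36, adjusted p = 4.12e-04), and FBXO32, a subunit of a ligase, from 5.99 to 8.43 CPM (0.50, adjusted p = 4.29e-04).

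KLF2 and KLF4 are known targets of the MEK5-ERK5-MEF2 route and of FOXO factors. Of 15 such regulators 14 were tested, 8 rose and 2 fell, with a median of 0.24. Among all genes 24.5% rose and 25.1% fell, and no test set the list apart from them. HDAC9, a deacetylase that binds MEF2 factors, rose from 2.44 ± 0.218 to 20.1 ± 1.94 CPM and was the one past both thresholds (log2 fold change 3.04, adjusted p = 2.80e-17), although on the log2(RPKM + 1) scale its difference was 0.94. MEF2D rose by 0.66 (adjusted p = 1.04e-08) and HDAC5 by 0.66 (adjusted p = 6.75e-08), while MEF2A fell from 15.0 to 8.55 CPM (−0.80, adjusted p = 7.41e-08).

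KLF9 is a glucocorticoid-induced gene. Of 15 further genes of the glucocorticoid response, the receptor gene NR3C1 among them, 14 were tested, 5 rose and 3 fell, with a median of 0.070, where 24.5% of all genes rose and 25.1% fell. NR3C1 was 1 of the 3 that fell (−0.22, adjusted p = 0.0133). PER1, a clock gene that glucocorticoids and other signals induce, stood at 4.94, 5.98 and 6.52 CPM in siCtrl and at 67.9, 60.2 and 57.1 CPM in siBAP18 (log2 fold change 3.41, adjusted p = 1.56e-19). FKBP5, a chaperone of the glucocorticoid receptor, fell from 58.4 to 37.6 CPM (−0.63, adjusted p = 1.17e-07). DUSP1, a phosphatase of MAP kinases, rose by 0.75 (adjusted p = 8.30e-10) and NFKBIA, the inhibitor of NF-κB, by 0.67 (adjusted p = 7.28e-08).

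Among 16 genes of the TGF-β pathway, which induces KLF10 and KLF11, 5 rose and 4 fell, none past both thresholds, with a median of 0.082. These 9 of 16 are near the 49.6% of all genes that were called. PMEPA1, a feedback inhibitor of the pathway, rose by 0.74 (adjusted p = 5.08e-10) and LTBP2, a matrix protein of the latent TGF-β binding family, by 0.68 (adjusted p = 2.73e-08). SKIL, a repressor of SMAD factors, fell from 34.9 to 23.8 CPM (−0.55, adjusted p = 1.09e-06). TGFBR3, the co-receptor betaglycan, fell from 8.96 to 5.21 CPM (−0.77, adjusted p = 4.19e-06).

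Genes reported as targets of KLF2, KLF4, KLF6 and KLF10 were counted last. Of 21 listed 18 were tested, 6 rose and 6 fell, with a median of 0.028, against 24.5% and 25.1% of all genes. CDKN1A, the cell cycle inhibitor p21, stood at 38.7, 38.2 and 40.0 CPM in siCtrl and at 129, 119.9 and 142 CPM in siBAP18, without overlap (log2 fold change 1.74, adjusted p = 7.30e-16). NOS3, an endothelial target of KLF2 that was named after its values were seen, also rose past both thresholds, at a level below 1 CPM in either group mean (1.87, adjusted p = 1.22e-04). CDH1, the epithelial cadherin, fell from 63.9 ± 1.27 to 25.5 ± 0.202 CPM (−1.32, adjusted p = 3.81e-14) and KRT4, a keratin of differentiated squamous epithelium, from 19.3 to 5.68 CPM (−1.77, adjusted p = 7.45e-14). CCND1, a cyclin of the G1 phase, fell from 378 to 218 CPM (−0.79, adjusted p = 8.03e-10). The plot of these lists sets their members side by side.

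**Figure D4:**
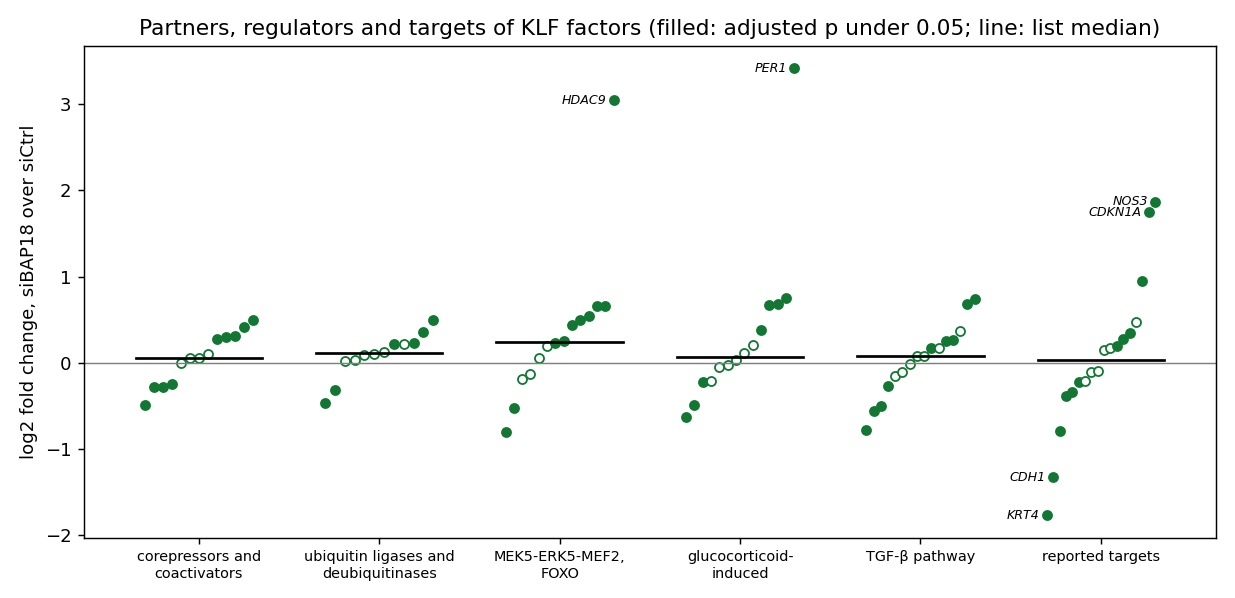
Log2 fold change of siBAP18 over siCtrl for tested genes of 6 lists of partners, regulators and targets of Kruppel-like factors, ordered within each list, filled at an adjusted p under 0.05 and with a line at the list median. The medians lie between 0.028 and 0.24, and the named points are the genes beyond −1 or 1.

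For the members past both thresholds, the genes most alike across the 6 libraries were ranked by the Pearson correlation of log2 CPM. For KLF6 they were ATF1 (r = 0.9992), TPM1 (r = 0.9991) and ZNF134 (r = 0.9990). For KLF10 they were MSANTD3 (r = 0.9989), NEDD4L (r = 0.9987) and AFG3L2 (r = 0.9986). The 6 libraries fall into the groups compared, which every gene that changed between them shares, so these values describe likeness and carry no test.

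The siRNAs themselves can pair with messages other than their target through guide bases 2 to 8, so the matching words were located in annotated 3′ UTRs. AATCACA, the word for siRNA 1, was present in KLF2, KLF3, KLF7 and KLF9 and in 14.1% of 13616 genes. AAGATTC, for siRNA 2, was present in KLF3, KLF9 and KLF11 and in 11.2% of genes. ACTCAAC, for siRNA 3, was present in KLF7 alone among the members and in 6.85% of genes. KLF4, KLF6, KLF13 and KLF16 had none of the words, and neither had KLF10. Of the members that rose, KLF7 and KLF11 carry sites, shown here on the strand of the gene with the word in capitals.
KLF7, siRNA 3, chr2:207081012-207081018: tgtcatgcACTCAACtatattta
KLF7, siRNA 1, chr2:207080356-207080362: tgatgataAATCACAgtatatcc
KLF11, siRNA 2, chr2:10053555-10053561: gcagtgccAAGATTCcgcttcct
Outside the members, KLF12 held the word for siRNA 2, and SP1 and SP3 held that for siRNA 3. KLF12, SP1 and SP3 were called lower in siBAP18, as were 25.1% of all genes tested. Their 3′ UTRs have 9401, 5206 and 3482 bases, and those of KLF7 and KLF11 have 7076 and 2329. The shares of genes with each word were not matched for this length. KLF8 held the word for siRNA 1 and KLF14 that for siRNA 2, and neither gene was tested for a change. Whether any of these sites bears on the values was not tested.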

How the data were processed

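RNA sequencing libraries of 3 siCtrl and 3 siBAP18 cultures of A549 cells were analysed. The authors deposited whole-number counts per gene, without normalization, and RPKM values, which were checked to be those counts scaled by the listed length of each gene and the total of the column. The submitters' processing notes name the builds hg38 and GRCm38, and the deposited positions fit GRCh38. The library kit marks strand, and the aligner, the counter and its strand setting are not given in the sources used here. Of counts from 1 to 4, 78.8% to 80.5% per library were even, so both reads of a pair may have been counted, in which case intervals and floors taken from counts alone are too narrow. Those cover counting error only. A gene at 0 could account for 3 counts, or 0.0531 to 0.0713 CPM without TMM factors.

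The fit kept genes that pass filterByExpr, used TMM scaling and ran in edgeR 4.0.16 (R 4.3.3) as a quasi-likelihood test without covariates, with Benjamini-Hochberg adjustment over all 20776 genes. Standard errors come from the fold change and its F statistic, and intervals use the t distribution with edgeR's degrees of freedom. Calls were made at an adjusted p under 0.05, and additionally at an absolute log2 fold change over 1. Alternatives used DESeq2 1.42.0, limma 3.58.1, other scalings and filters, a replicate block and each library left out. The steps were tested on simulated data. The members and the gene lists were chosen with earlier results of these data known. A gene of the TGF-β list is not reported here. The text names all KLF genes, C17orf49, of each other list the up to 4 genes with the smallest adjusted p, NOS3, SP7, NR3C1 and marker genes outside that rule, and for each member past both thresholds its 3 most correlated genes above a mean log2 CPM of 1. Promoter windows came from RefSeq and 3′ UTRs from GENCODE 29, read with Python 3.11.15.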

Additional observations from a re-analysis of the deposited data

How the results depend on the processing

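KLF6, KLF10, KLF11 and KLF4 kept their direction and their call in all 16 alternatives, with log2 fold changes of 1.56 to 2.18, 1.24 to 1.44, 0.54 to 0.96 and 0.52 to 0.88, and KLF6 and KLF10 were the members past both thresholds in each of them. The count of members changed was 6, and it ranged from 4 to 7 as single libraries were left out. KLF7 was not called by limma on log2(RPKM + 1), on log2(RPKM + 0.1) or on log2(RPKM + 1) without a filter (adjusted p = 0.124, 0.131 and 0.253), and KLF13 was not called by the last of these (adjusted p = 0.0653). By the same 3 settings 348, 909 and 345 genes of the table passed both thresholds, against 1758. A pseudocount of 1 shrinks the fold changes of low genes by its construction, and with it KLF5 and HDAC9 were called but no longer past a log2 fold change of 1. The same held for KLF12 and KLF15 without a filter, while with the filter on mean RPKM they were not tested. KLF15 was also not tested where at least 10 counts in every library were required. Among members and SP genes that were not called, KLF2, KLF16 and SP7 changed sign as libraries were left out, and the cause was not tested. For KLF2 the log2 fold change ranged from −0.053 without siCtrl replicate 2 to 0.022 without siCtrl replicate 3, and it was also above 0 without siBAP18 replicate 1. For KLF16 it ranged from −0.086 without siBAP18 replicate 1 to 0.22 without siBAP18 replicate 2, and for SP7 from −0.36 without siBAP18 replicate 3 to 0.12 without siBAP18 replicate 1. SP1, which fell, and FBXO32, which rose, lost their call in limma without a filter. When only 50 bases on either side of the start were searched, GGGCGG was present in 33.3% of the members' windows against 25.1% of all windows, CACCC in 16.7% against 26.0% and CCAAT in 8.33% against 10.7%. TGACGTCA and the CArG box were present in none of the members' windows.

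The values did not settle whether same-numbered libraries form pairs, and the main fit used no replicate block. Deviations from the group means of same-numbered libraries correlated across genes at r = 0.0668, 0.227 and 0.107, all above 0 but not over 0.1 in every pair. Those of differently numbered libraries correlated at −0.170 to 0.0721, the highest between siCtrl replicate 1 and siBAP18 replicate 3. Deviations within a group sum to 0, so these values depend on one another. With a replicate block 10803 genes were called, against 10305, and the members changed and past both thresholds remained 6 and 2, the same genes. KLF2 had the fewest counts of the members, 48 to 68 a library, and the widest interval among them.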
